A study of Arabidopsis thaliana with 8 samples.

Results

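The genes described here lie around TT8 (AT4G09820) on chromosome 4 of Arabidopsis thaliana. They were chosen by locus number, from AT4G08000 to AT4G12000 without TT8 itself, and by detection: each had to be flagged as well above background by all 4 arrays of tt8-3, of wild type or of both. Of 722 such loci in the gene table, 373 were on the array and 232 were detected, out of 19226 genes detected and tested in the whole series. The arrays held RNA of whole seedlings, 6 days old, of tt8-3, a line in the Ws background without functional TT8, and of wild type Ws. Seedlings grew on sucrose medium in long days. Each line has 4 arrays, which lie on 2 slides with 2 arrays per line and slide, and the series describes 2 biological replicates per line, each measured in technical replicates. Only 1 mutant line was measured, so an effect of TT8 and any other difference between this line and Ws cannot be told apart. On both slides wild-type RNA lay in the earlier array positions and RNA of tt8-3 in the later ones, so genotype and position on the slide cannot be told apart either.

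TT8 encodes a basic helix-loop-helix transcription factor that works with MYB and WD40 partners to switch on late flavonoid genes, those of anthocyanins and of the brown tannins of the seed coat. Genes next to a mutated gene are inherited together with it through crosses, so the chromosome around a mutated locus is commonly looked at apart from the rest of the genome. The interval holds genes of unrelated functions, among them the blue light receptor CRY1, light signalling genes such as DET1 and SPA2, clusters of cysteine-rich receptor-like kinases, and housekeeping genes of the ribosome and the chloroplast.

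Levels are log2 of the processed spot signal minus the 75th percentile of its array, so a level of 0 is a gene as bright as that percentile. Differences are tt8-3 minus wild type on this log2 scale. Both arrays that a line has on a slide were averaged, which gives 2 values per line (n = 2 per line). A difference given with ± carries its SE from the limma fit. A gene was called when its limma p-value, adjusted by Benjamini-Hochberg over all 19226 genes, was under 0.05. The design text calls the biological replicates independent without saying how they were grown, and the spread behind the p-values may be technical in part or in full.

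TT8 itself checked the labels. Its levels were -6.04, -5.56, -6.95 and -7.08 on the tt8-3 arrays, none of them well above background, against 4.26, 4.39, 4.18 and 4.29 on the wild-type arrays. The signal was at least 1521-fold lower in tt8-3, a bound set by the dimmest signals well above background (limma adjusted p = 0.0018). With normexp background correction and an offset of 50 added, the log2 difference was -6.94 in place of -10.69. With spots of flagged background left out as well, it was -7.73. The bound therefore holds for the processed signal alone. TT8 has 1 probe on the array, and where the mutation lies relative to that probe is not given in the sources used here. Of the organ markers, all 3 shoot markers and both root markers on the array were detected on all 8 arrays. The shoot markers RBCS1A (-0.41), CAB1 (-0.38) and LHB1B2 (-0.43) were not called. Of the root markers, PYK10 was higher (0.71, limma adjusted p = 0.021) and NRT2:1 lower (-2.05, adjusted p = 0.0032) in tt8-3. In the wild type no embryo marker was detected on any array. In tt8-3 the seed storage gene CRA1 was detected on 4 arrays, the oil body gene OLEO1 on 2 and the storage gene SESA1 on 0. Of the pollen markers, PGA4 was detected on 0 arrays and AT5G07410 on 3 tt8-3 arrays and 4 wild-type arrays. Fewer cells of a type and less RNA per cell cannot be told apart in whole seedlings.

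The wild-type arrays did not pair up by slide. Over the interval, the median absolute difference between arrays of 1 slide was 0.162 (slide 1) and 0.12 (slide 2) in tt8-3, against 0.342 and 0.351 in wild type. Between arrays of the same position on different slides it was 0.154 and 0.208 in tt8-3, against 0.124 and 0.157 in wild type. Wild-type replicates 1 and 3 were thus closer to each other than to replicates 2 and 4, and many genes below show this split. For that reason the calls were also made with the arrays of a line averaged by position in place of by slide. Slide deviations of the lines correlated at 0.78 over genes, so the main counts are also given with the slide as a block. Which arrays of a line are technical replicates could not be settled, and the spread in the block fit may be technical.

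The genes around TT8 were called about as often as genes elsewhere. By slide averages, 59 of the 232 detected genes (25.43%) were called, 32 higher and 27 lower in tt8-3, beside 26.7% of all genes tested (15.7% higher and 11.0% lower). On the rest of chromosome 4, 25.84% of 2651 genes were called, or 64.47% with the slide as a block. The median difference over the interval was -0.06, beside 0.01 over all genes, and the median size without regard to sign was 0.28 against 0.29. A log2 difference over 1 in size was seen in 17 genes (7.328%), beside 7.89% of all genes. Of the 214 genes well above background on all 8 arrays, 7 had such a difference (3.27%), beside 5.82% of such genes in the whole series.

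Which averages are used set how many genes were called. By position, 9 of the 232 genes passed (3.879%), beside 3.11% of all genes (2.73% higher and 0.380% lower). All 9 were higher in tt8-3 and among the 59. Of these 9, 7 passed the detection rule only through tt8-3, so the filter bears on their direction. Of 214 genes well above background on all 8 arrays, 2 passed (0.93%), beside 1.90% of such genes in the whole series. With the slide as a block, 145 genes passed, 67 higher and 78 lower, and these included all 59, beside 64.6% of all genes (33.8% higher and 30.8% lower). Leaving out 1 array or 1 slide average at a time gave 20 to 51 calls. Without wild type replicates 1, 2, 3 and 4 in turn there were 28, 32, 20 and 35, without the wild-type averages of slides 1 and 2 there were 24 and 26, and without the tt8-3 average of slide 1 there were 38. Only 12 of the 59 genes were called in all 12 of these fits. Scaling each array by its median instead moved the split of calls to 18 higher and 38 lower, with the median of all genes moved by -0.10. Every call named below was lost by position, unless the gene is said to be among the 9.

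The arrays of the lines did not overlap for 30 genes higher and 33 genes lower in tt8-3 (27.16% of the interval), beside 33.1% of all genes (19.6% higher and 13.5% lower). Of the 59 called genes, 41 were of this kind, and in the other 18 the ranges of the lines overlapped. The sign of the difference was the same on both slides for 91.38% of the interval and for 90.04% of all genes. Of the interval's genes on the array 62.2% were detected, beside 75.59% of all named genes on the array. Of the 141 genes not tested, 106 were well above background on no array, and 35 on 1 to 7 arrays. Among the 232, 214 were well above background on all 8 arrays, 17 passed through tt8-3 alone and 1 through wild type alone. Those 18 had a mean level of -5.92 to -2.64 in their brighter line, and 6 genes that missed the rule with 3 arrays of a line had -6.23 to -5.59. A gene that passed through tt8-3 alone is low in wild type by the rule. With these 18 left out, 50 of 214 genes were called, 23 higher and 27 lower, beside 25.2% of such genes in the whole series (14.0% higher and 11.2% lower). With the block 130 of the 214 were called (60.75%), beside 63.82% of such genes in the whole series.

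**Figure D1:**
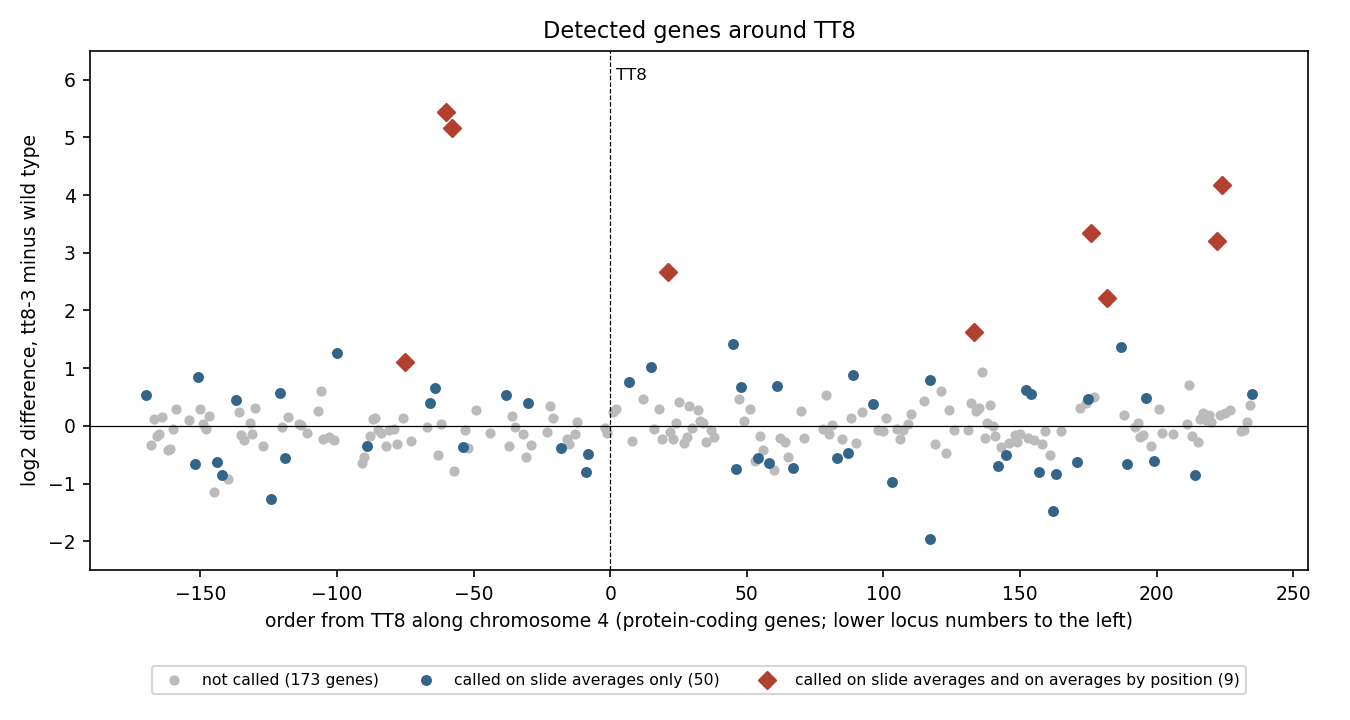
Log2 difference (tt8-3 minus wild type, vertical axis) of the 232 detected genes by their order from TT8 in protein-coding genes (horizontal axis, dashed line at TT8). Called genes lie on both sides of 0 over the whole interval, and the 9 genes called under both averagings (diamonds) lie 21 or more genes from TT8.

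Distance from TT8 was counted in protein-coding genes of the gene table, since the build named in the scanner files is older than that of the table. Detected genes reached 170 genes away on the side of lower locus numbers (91 genes) and 235 genes away on the side of higher numbers (141 genes). Within 20 genes of TT8, 5 of 18 detected genes were called (27.78%), 2 higher and 3 lower in tt8-3. From 21 to 50 genes away 6 of 33 were called (18.18%), and from 51 to 100 genes away 16 of 55 (29.09%). Past 100 and up to 150 genes away 12 of 62 were called (19.35%), and beyond that 20 of 64 (31.25%). The share thus moved up and down around the 26.7% of all genes with no steady change along the chromosome. By position the counts in the same order of distance were 0, 1, 3, 1 and 4. In the block fit they were 11, 19, 35, 39 and 41, or 61.11%, 57.58%, 63.64%, 62.9% and 64.06%, beside 64.6% of all genes.

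Over all genes 15.7% were higher and 11.0% lower. Of the 9 detected genes within 20 genes on the side of lower numbers, 3 were lower, 0 higher and 6 not called, with a median difference of -0.24. Of the 9 on the other side, 2 were higher, 0 lower and 7 not called, with a median of 0.29. With the slide as a block, 5 fell and 0 rose on the first side, and 4 rose and 2 fell on the second. These counts are small, no test of the difference between sides was made, and 0 of the 18 genes passed by position. From 21 to 50 genes away the lower side had 2 higher and 0 lower of 13, and the higher side 3 higher and 1 lower of 20. Of the 37 genes on the array within 20 genes of TT8, 19 were not detected.

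**Figure D2:**
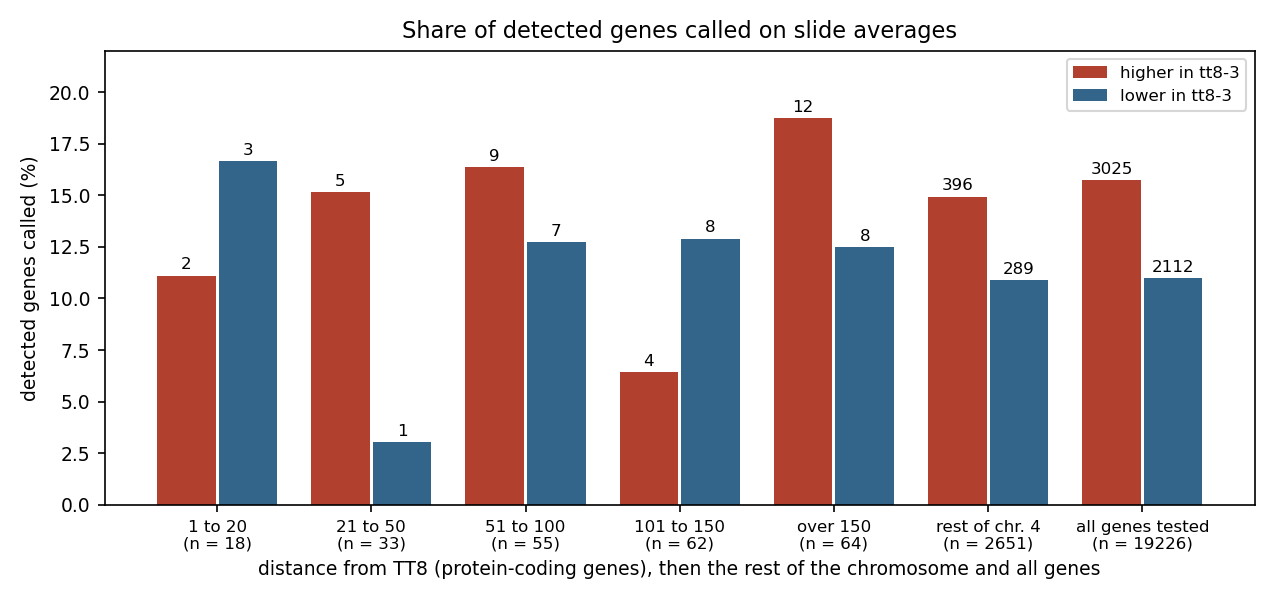
Share of detected genes called on slide averages (vertical axis, percent) by distance from TT8 in protein-coding genes, with the rest of chromosome 4 and all genes tested at the right. For each distance the left bar is genes higher in tt8-3 and the right bar genes lower in tt8-3, with the number of genes above. The nearest 20 genes have 2 higher and 3 lower, and the genes over 100 and up to 150 away 4 higher and 8 lower.

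The direct neighbours of TT8 differed little between the lines. AT4G09810 (URGT5, a transporter of nucleotide sugars), next to TT8 on the lower side, had levels of -3.23, -3.30, -3.21 and -3.14 in tt8-3, against -2.77, -3.55, -2.67 and -3.40 in wild type. The tt8-3 arrays lay between the wild-type arrays, and the gene was not called (log2 difference -0.12, limma adjusted p = 0.40). On the other side, AT4G09830 had 2.61, 2.63, 2.44 and 2.45 in tt8-3, against 2.22, 2.51, 2.08 and 2.38 in wild type. Its lines overlapped in range, and it passed only with the slide as a block (log2 difference 0.24, adjusted p = 0.19, and 0.019 with the block). RPS18C, a protein of the small ribosomal subunit 2 genes from TT8, had a difference of -0.03 (0.18 with quantile normalization), and AT4G09840, 2 genes away on the other side, had 0.29. Neither was called.

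AT4G09760 and AT4G09750, 8 and 9 genes from TT8, were the nearest genes that fell. AT4G09750 had levels of -1.52, -1.70, -1.64 and -1.91 in tt8-3, against -0.92, -0.71, -1.08 and -0.88 in wild type. All tt8-3 arrays lay below all wild-type arrays, and the signal was 1.74-fold lower in tt8-3 (log2 difference -0.80 ± 0.12 SE, limma adjusted p = 0.017). AT4G09760 had 1.54, 0.59, 1.43 and 0.58 in tt8-3, against 1.80, 1.40, 1.64 and 1.25 in wild type. There the tt8-3 arrays split by position, and replicates 1 and 3 lay within the wild-type range (log2 difference -0.49, adjusted p = 0.035).

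On the side of higher numbers, AT4G09890 and AT4G09970 rose. AT4G09890, 7 genes away, had 0.75, 0.82, 0.91 and 0.83 in tt8-3, against 0.29, -0.23, 0.31 and -0.07 in wild type. Its lines were apart on all arrays, 1.69-fold higher in tt8-3 (log2 difference 0.76 ± 0.092 SE, limma adjusted p = 0.012). AT4G09970, 15 genes away, had -0.49, -0.11, -0.57 and -0.38 in tt8-3, against -1.21, -1.51, -1.29 and -1.66 in wild type. This 2.04-fold rise was the largest within 20 genes of TT8, and it was called in all 12 leave-out fits (log2 difference 1.02 ± 0.11 SE, adjusted p = 0.010, and 0.081 by position).

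The other named neighbours were not called on slide averages. RH39, an RNA helicase of chloroplast ribosome assembly, had a difference of 0.06 (-0.04 with median scaling), and the small GTPase gene RABG3A had -0.14. The methylesterase gene MES12 had -0.26 (adjusted p = 0.39, and 0.015 with the block), with tt8-3 replicate 2 at 0.28 and the other tt8-3 arrays at -0.26, -0.36 and -0.40. AT4G09950 had 0.46 (adjusted p = 0.23, and 0.0049 with the block), with wild-type replicate 1 at -5.07 below the other 7 arrays. For these 4 genes the arrays of the lines overlapped.

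**Figure D3:**
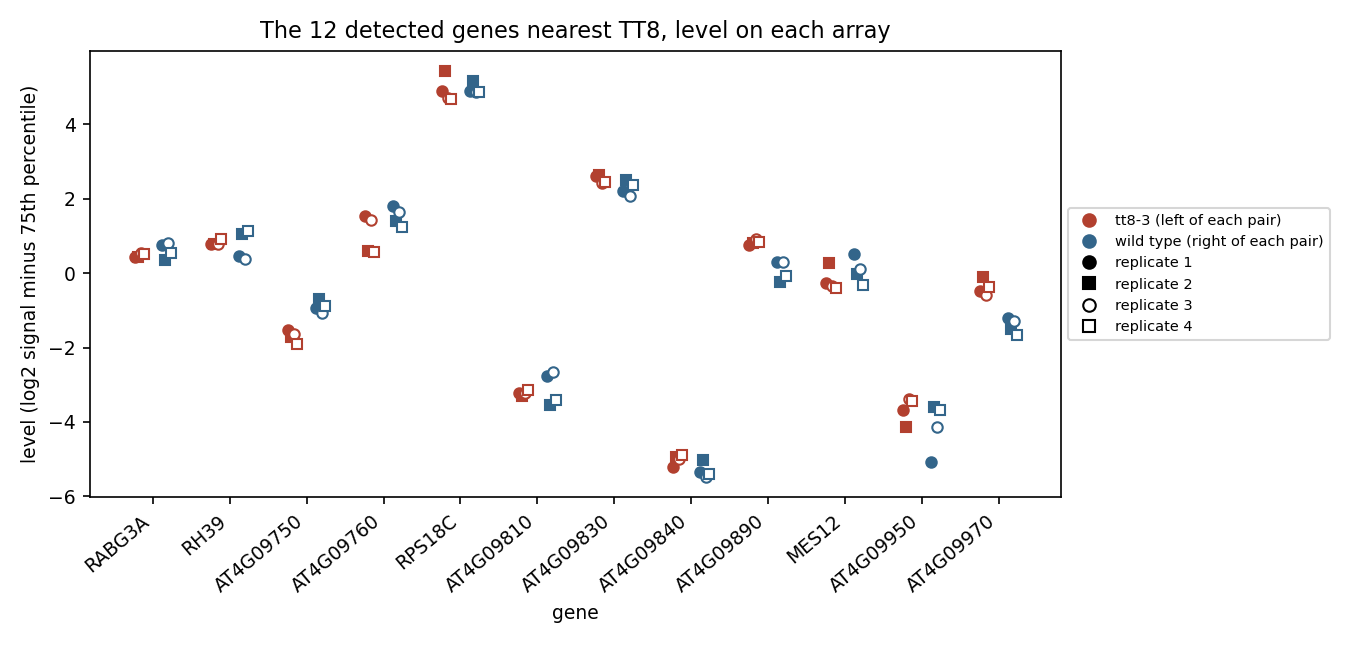
Level on each array (log2 signal relative to the array's 75th percentile, vertical axis) of the 12 detected genes nearest TT8, 6 on each side, from lower to higher locus numbers. For each gene tt8-3 is left and wild type right, circles are replicates 1 and 3 and squares replicates 2 and 4. The lines are apart for AT4G09750, AT4G09890 and AT4G09970 and overlap for the other 9 genes.

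The largest differences lay farther out and were rises of genes near background in wild type. The 9 genes that passed under both averagings were AT4G09060, AT4G09200, AT4G09250, HSD5, 3xHMG-box1, CRK30, AT4G11521, AGL14 and AT4G11900. Of these, only AT4G09060 and 3xHMG-box1 were well above background on every wild-type array. AT4G09060 alone was named outside the naming rule. The others were named by a rule that also uses their values (size, detection or p). The interval had 7 genes detected on all tt8-3 arrays and no wild-type array (1.877% of its 373 genes on the array) and 0 of the opposite kind. Over all 25433 named genes the shares were 0.940% and 0.00786%. For these 7 genes the fold is given as a lower bound on the processed signal, since the wild-type signal is not well above background. They passed the detection rule only through tt8-3, so the filter bears on their direction. Their p-values below are therefore no independent support for it. The share of probes flagged as well above background was 70.9% to 77.21% per tt8-3 array, against 68.98% to 71.66% per wild-type array.

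AT4G09200 and AT4G09250, 60 and 58 genes from TT8, had the largest differences. AT4G09200 had levels of -2.47, -2.96, -2.69 and -3.21 in tt8-3, against -8.04, -8.71, -8.11 and -8.22 in wild type. Its signal was at least 8.98-fold higher in tt8-3 (limma adjusted p = 0.00073, and 0.0024 by position). AT4G09250 had -2.20, -2.91, -2.46 and -2.99 in tt8-3, against -7.74, -7.59, -7.83 and -8.05 in wild type. It was at least 10.3-fold higher (adjusted p = 0.00078, and 0.0026 by position). The wild-type arrays of both genes lay near the bottom of the measured range. Both passed the detection rule only through tt8-3, so the filter bears on their direction. The gene table gives neither locus a name. With normexp background correction, spots of flagged background left out and an offset of 50 added, the log2 differences were 1.78 and 1.5 in place of 5.44 and 5.17. The lower bounds on the fold therefore hold for the processed signal alone.

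AT4G11900 and AGL14, 224 and 222 genes from TT8 near the far end of the interval, were also detected in tt8-3 alone. AT4G11900 had -3.79, -3.85, -3.71 and -3.81 in tt8-3, against -7.31, -8.41, -7.96 and -8.14 in wild type. Its tt8-3 arrays were close together, and the signal was at least 4.63-fold higher (limma adjusted p = 0.00073). A second probe of the gene, also detected on the tt8-3 arrays alone, gave a log2 difference of 2.67 beside 4.17 for the brighter probe. AGL14, a MADS-box transcription factor, had -5.15, -4.88, -4.86 and -4.30 in tt8-3, against -7.75, -8.70, -7.79 and -7.78 in wild type. That is at least 2.30-fold higher (adjusted p = 0.0053). Both genes passed the detection rule only through tt8-3, so the filter bears on their direction. The gene between them, ARCK1, which encodes a receptor-like kinase, had a difference of 0.20 and was not called.

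CRK30 and HSD5 were the other genes detected in tt8-3 alone that passed under both averagings. They met the detection rule only through tt8-3, so the filter bears on their direction. CRK30, a cysteine-rich receptor-like kinase, had -4.54, -5.25, -4.60 and -5.19 in tt8-3, against -8.06, -8.69, -8.03 and -8.19 in wild type, at least 2.15-fold higher (limma adjusted p = 0.0014). The next gene, its relative CRK31, was detected on 1 wild-type array and had a difference of 0.51 (adjusted p = 0.41). HSD5, named for a hydroxysteroid dehydrogenase, had -5.18, -5.71, -4.62 and -5.94 in tt8-3, against -8.06, -8.73, -7.58 and -7.76 in wild type. This was at least 1.56-fold higher (adjusted p = 0.0092), and HSD5 is also the called gene nearest TT8 among the 9, at 21 genes. The summed signal of the 3 embryo markers was 0.0269 to 0.129 times the 75th percentile on tt8-3 arrays, against 0.0115 to 0.0232 on wild-type arrays. Its part in the rise of HSD5 was not tested.

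ATHSP22.0, a small heat shock protein, was the seventh gene detected in tt8-3 alone, and its lines overlapped. Its levels were -5.45, -4.83, -5.85 and -4.78 in tt8-3, against -5.70, -6.69, -6.08 and -8.13 in wild type. It was at least 1.69-fold higher, with a limma adjusted p of 0.046 by slide, 0.24 by position and a call in 6 of the 12 leave-out fits. AT4G11521 was detected on 2 wild-type arrays and AT4G11550 on 1. AT4G11521 had -3.12, -3.09, -3.40 and -3.45 in tt8-3, against -5.87, -5.16, -5.71 and -5.21 in wild type, and was called under both averagings (log2 difference 2.22, adjusted p = 0.0042 and 0.027). AT4G11550 had a difference of 1.36 and was called by slide alone (adjusted p = 0.0042 and 0.18). ATHSP22.0, AT4G11521 and AT4G11550 all passed the detection rule only through tt8-3, so the filter bears on their direction.

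Among genes detected on every array, 3xHMG-box1 and ARGAH2 had the largest rises. 3xHMG-box1, which encodes a protein of mitotic chromosomes, had -3.21, -4.01, -2.83 and -2.76 in tt8-3, against -4.97, -5.12, -4.55 and -4.66 in wild type. It was 3.08-fold higher, and the lines did not overlap (log2 difference 1.62 ± 0.33 SE, limma adjusted p = 0.035, and 0.031 by position). ARGAH2, an arginase, had 0.53, 1.80, 1.21 and 2.12 in tt8-3, against -0.29, -0.06, 0.35 and 0.62 in wild type. Its tt8-3 replicate 1 lay below wild-type replicate 4, and the 2.39-fold rise was called in 7 of the 12 leave-out fits (adjusted p = 0.047). ARGAH1, the other arginase of the interval, was 0.65 lower (adjusted p = 0.35, and 0.0035 with the block). AT4G09060 was 2.15-fold higher, with tt8-3 arrays at -2.83 to -2.60 and wild-type arrays at -4.01 to -3.51 (adjusted p = 0.0062, and 0.046 by position).

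**Figure D4:**
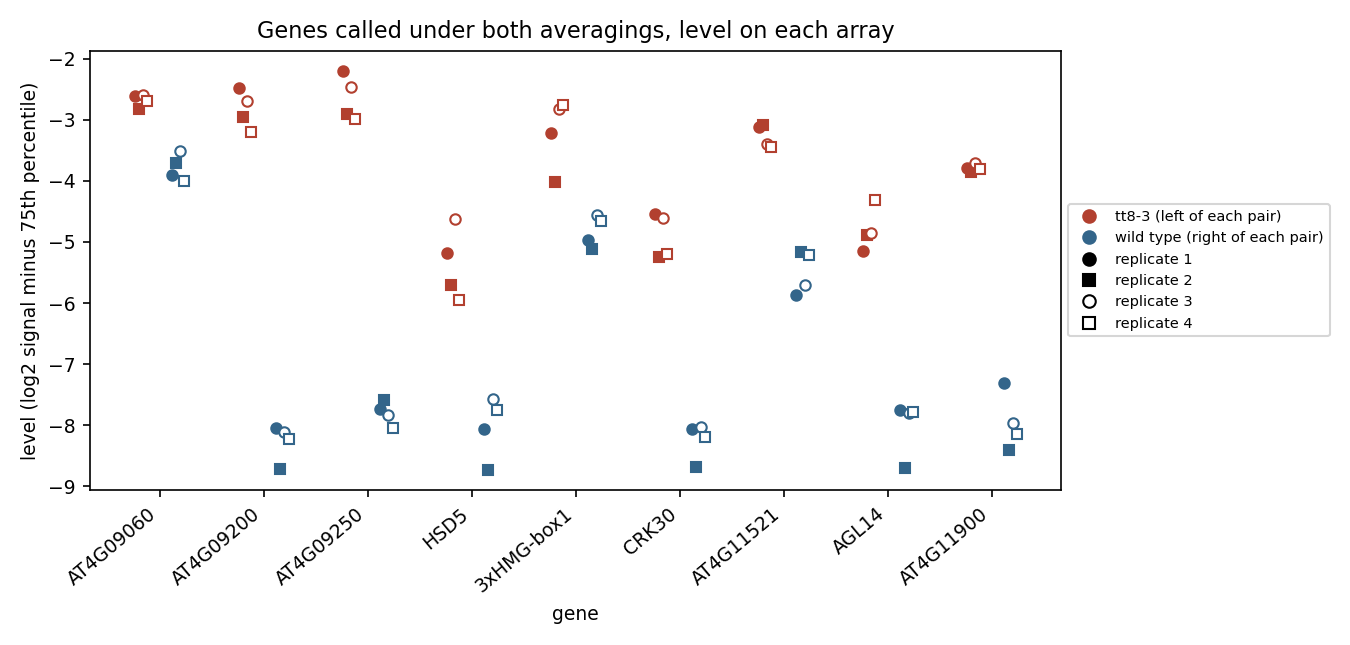
Level on each array (log2 signal relative to the array's 75th percentile, vertical axis) of the 9 genes called under both averagings, by locus number. For each gene tt8-3 is left and wild type right, circles are replicates 1 and 3 and squares replicates 2 and 4. All tt8-3 arrays lie above all wild-type arrays for each of the 9 genes, and 6 genes have wild-type levels from -8.73 to -7.31. Of the 9 genes, 7 passed the detection rule only through tt8-3, so the filter bears on this separation.

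The falls were smaller, and no fall in the interval passed by position. AT4G10910 had the largest, with -1.38, -2.11, -1.66 and -2.31 in tt8-3, against 0.55, -0.19, 0.38 and -0.32 in wild type. The lines did not overlap, and the signal was 3.91-fold lower in tt8-3 (log2 difference -1.97 ± 0.13 SE, limma adjusted p = 0.0044, and 0.070 by position). In the gene table it overlaps KELP, a transcriptional coactivator, which went the other way with a difference of 0.79 (adjusted p = 0.044). A probe of either gene could read the other's transcript, and the strand of the probes is not given in the sources used here.

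RHA1B and RHA1A, RING finger genes that lie next to each other, both fell. RHA1B had 3.25, 2.91, 3.06 and 2.59 in tt8-3, against 4.71, 4.23, 4.62 and 4.13 in wild type. It was 2.77-fold lower with no overlap (log2 difference -1.47 ± 0.12 SE, limma adjusted p = 0.0068, and 0.063 by position). RHA1A had -0.59, -0.69, -0.83 and -1.05 in tt8-3, against 0.40, -0.03, 0.17 and -0.37 in wild type, 1.78-fold lower (adjusted p = 0.033). The genes are related in sequence, and whether their probes read each other's transcripts was not tested.

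OPT7 and AT4G08555 show the split of the wild-type arrays. OPT7, an oligopeptide transporter, had 0.65, 0.31, 0.47 and 0.13 in tt8-3, against 2.00, 0.93, 1.97 and 0.58 in wild type. Wild-type replicates 1 and 3 were high and replicate 4 lay inside the tt8-3 range (log2 difference -0.98, limma adjusted p = 0.013, and 0.27 by position). AT4G08555 had -2.46, -2.96, -2.34 and -2.72 in tt8-3, against -2.87, -0.06, -2.81 and 0.34 in wild type. Here wild-type replicates 2 and 4 were high and the others lay among the tt8-3 arrays (log2 difference -1.27, adjusted p = 0.0093, and 0.49 by position).

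The remaining falls among the 10 largest were 1.68-fold to 1.80-fold. They were AT4G11810, AT4G08400, AT4G09750 (above), the cysteine protease gene AT4G11310 (CP1) and AT4G10260. AT4G11810 and AT4G08400 fell by 0.85 each on the log2 scale, AT4G11310 fell by 0.79 and AT4G10260 fell by 0.75 (limma adjusted p from 0.011 to 0.021). AT4G10260 had -5.39, -4.48, -5.90 and -4.30 in tt8-3, against -3.40, -4.94, -3.51 and -5.21 in wild type. Both lines split by position and overlapped, and the call held in 5 of the 12 leave-out fits.

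**Figure D5:**
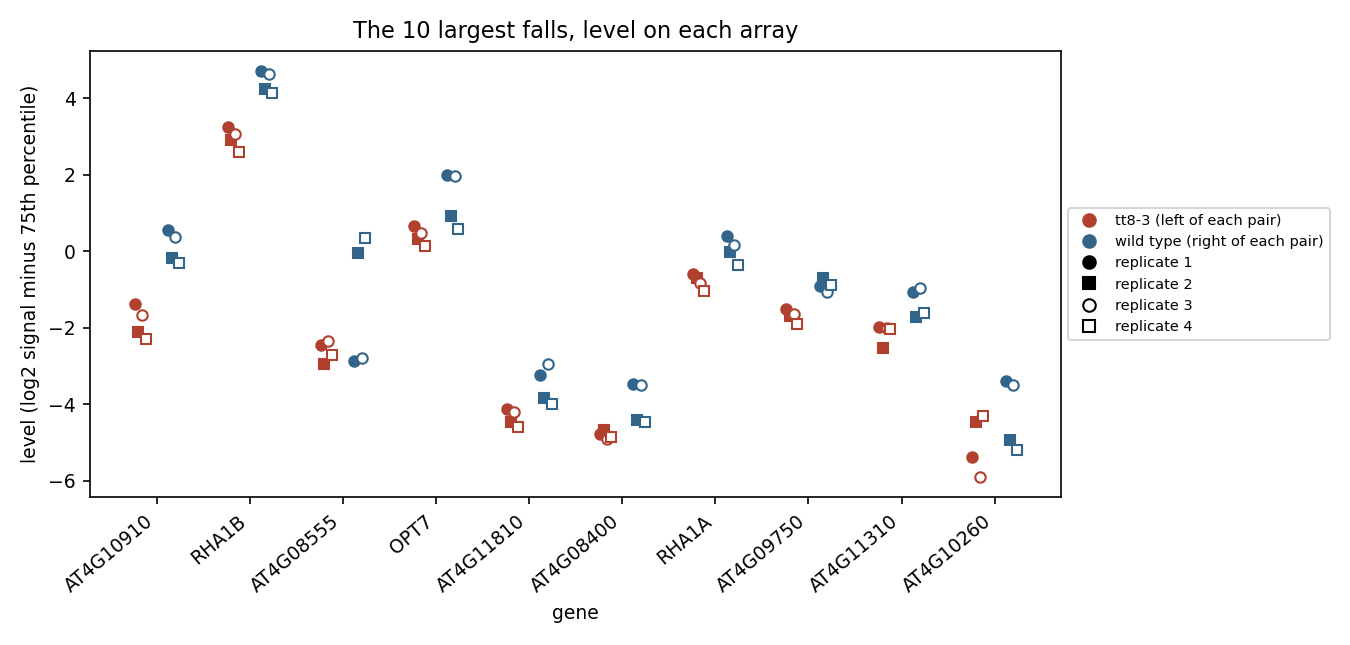
Level on each array (log2 signal relative to the array's 75th percentile, vertical axis) of the 10 largest falls among called genes, from the largest at the left. For each gene tt8-3 is left and wild type right, circles are replicates 1 and 3 and squares replicates 2 and 4. In AT4G08555, OPT7 and AT4G10260 the wild-type circles and squares lie apart and the lines overlap.

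Of the called genes, AT4G11170 (RMG1) and AT4G08593 had wild-type arrays both below and above all tt8-3 arrays, beside 0.629% of all genes. AT4G11170 had -4.33, -4.20, -4.32 and -4.12 in tt8-3, against -5.13, -2.08, -5.05 and -1.97 in wild type. The wild-type mean of each slide lay above the tt8-3 mean, which gave the call (log2 difference -0.69, limma adjusted p = 0.014), although wild-type replicates 1 and 3 lay below every tt8-3 array. Without wild-type replicate 2 the difference was 0.07, and without replicate 4 it was 0.08. AT4G08593, named here after its values were seen, had -0.55 (adjusted p = 0.026). Without wild-type replicate 2 it was 0.53 and without replicate 4 it was 0.48, and the call held in 4 of the 12 leave-out fits.

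The genes were also grouped by function in 9 lists of 118 loci, 90 of them detected. Membership came from general knowledge of the loci, and unnamed loci in these lists have no name in the gene table. The lists were chosen with earlier results of these data known. Over all genes tested 15.7% were higher and 11.0% lower, or 33.8% and 30.8% with the block. Of 7 receptor-like kinases 4 were higher and 0 lower, and 3 passed by position. Those were CRK30, AT4G11521 and AT4G11900, which passed the detection rule only through tt8-3, with 0, 2 and 0 wild-type arrays well above background, so the filter bears on their direction. The fourth was AT4G10390 (0.69, adjusted p = 0.042). Fitted with the slide block, 5 rose and 1 fell.

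Of 13 stress and defence genes 5 were higher and 1 lower in tt8-3, beside 15.7% and 11.0% of all genes, with a median of 0.05, and 5 rose and 3 fell in the block fit. SGT1B, a co-chaperone of immune receptors, had 2.98, 3.09, 2.90 and 2.84 in tt8-3, against 2.25, 2.54, 2.06 and 2.45 in wild type. It was 1.54-fold higher with no overlap (limma adjusted p = 0.025). The calcium-dependent kinase gene CPK4 (0.40), the osmotin-like gene OSM34 (0.49), ATHSP22.0 and ACS6, an enzyme of ethylene synthesis (0.55), were the other rises. Of these, ATHSP22.0 passed the detection rule only through tt8-3, so the filter bears on its direction. The heat shock factor gene AT-HSFB2B was lower (-0.62). For CPK4 and OSM34 the lines overlapped. The kinase genes MEKK1 (0.05, or -0.05 with median scaling), MEKK3 (-0.15) and MPK5 (-0.08) were not called. None of the 13 passed by position.

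Of 13 light, development and hormone genes 2 were higher and 1 lower, with a median of 0.12, and with the block 5 were higher and 2 lower. The higher ones were AGL14 and 3xHMG-box1. AGL14 passed the detection rule only through tt8-3, so the filter bears on its direction. CRY1, the blue light receptor, had 3.02, 2.71, 3.03 and 2.75 in tt8-3, against 3.32, 3.11, 3.37 and 3.13 in wild type. It was 1.28-fold lower with no overlap (limma adjusted p = 0.046), and this call was lost in all 12 leave-out fits. SPA2, a repressor of light signalling, was not called at 0.93 (adjusted p = 0.059 by slide, 0.054 by position and 0.0022 with the block). Its lines did not overlap, but 2 further probes of SPA2 gave -0.48 and -0.12. DET1 (-0.19), KNAT1 (0.12) and MYB6 (-0.12) were not called. The 14-3-3 gene GRF1 had -0.35, called only with the block (adjusted p = 0.11, and 0.010 with the block).

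Of 9 chloroplast genes 0 were higher and 2 lower (median -0.09), and with the block 1 was higher and 4 lower. The summed signal of the 3 shoot markers was 484.4 to 989.5 times the 75th percentile on tt8-3 arrays, against 556.4 to 1315 on wild-type arrays, and its part in these values was not tested. SAPX, the stromal ascorbate peroxidase, had 1.02, 1.05, 0.72 and 0.81 in tt8-3, against 1.58, 1.61, 1.39 and 1.52 in wild type, with no overlap (log2 difference -0.62, limma adjusted p = 0.037). ATPD, the delta subunit of the chloroplast ATP synthase, had 4.40, 4.40, 4.53 and 4.40 in tt8-3, against 5.19, 4.41, 5.18 and 4.48 in wild type. Wild-type replicates 2 and 4 lay near the tt8-3 arrays (log2 difference -0.38, adjusted p = 0.042). The antenna gene LHCB5 (-0.42) and the gene NdhT (-0.38) passed only with the block (adjusted p = 0.32 and 0.065, and 0.011 and 0.019 with the block).

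Of 8 transporter genes 0 were higher and 2 lower (median -0.36), or 4 lower with the block. The 2 were OPT7 and UMAMIT17 (-0.66, limma adjusted p = 0.047). The summed signal of the 2 root markers was 28.03 to 39.17 times the 75th percentile on tt8-3 arrays, against 15.1 to 29.92 on wild-type arrays, and its part was not tested. The markers went opposite ways (PYK10 0.71, NRT2:1 -2.05), so the sum does not stand for both. The boric acid channel gene NIP5;1 had -1.30, -0.87, -0.83 and -0.52 in tt8-3, against -0.09, -0.40, 0.22 and -0.23 in wild type. Its lines did not overlap, and it just missed the threshold (log2 difference -0.76, adjusted p = 0.051, and 0.0036 with the block). The sodium transporter gene HKT1 had -0.60 (adjusted p = 0.053, and 0.0029 with the block). Of 9 protease and ubiquitin genes 0 were higher and 3 lower (median -0.28), or 4 lower with the block. The 3 were RHA1B, RHA1A and AT4G11310. The neighbour of AT4G11310, the related protease gene AT4G11320 (CP2), had -0.31 and passed only with the block (adjusted p = 0.066, and 0.013 with the block).

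The other 3 lists were mixed. Of 17 metabolic genes 2 were higher and 2 lower (median 0.12), and with the block 7 were higher and 6 lower. The higher ones were HSD5 and ARGAH2, and the lower ones AT4G09760 and AT4G10260. HSD5 passed the detection rule only through tt8-3, so the filter bears on its direction. The phospholipase genes PLDGAMMA1, PLDGAMMA2 and PLDGAMMA3, which lie close together, had differences of 0.20, 0.12 and 0.22 and were not called. Of 12 genes of genome maintenance, RNA and protein synthesis 1 was higher and 2 lower (median -0.04), and with the block 2 were higher and 5 lower. SPT16, a histone chaperone subunit, was higher (0.38, limma adjusted p = 0.042). AT4G10450 (-0.73, adjusted p = 0.013) and the nucleoside diphosphate kinase gene NDPK1 (-0.36, adjusted p = 0.045) were lower. Of the 2 detected immune receptor genes, AT4G11170 was called, as given above, and AT4G09420 was not (0.28, adjusted p = 0.25, and 0.012 with the block). The 9 lists held 28 of the 59 called genes, and 31 lay in none.

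Neighbouring genes had the same sign about as often as elsewhere. Of 230 pairs of adjacent detected genes in the interval, 55.22% had differences of the same sign, beside 52.56% of 19221 pairs over the 5 chromosomes. Among the 80 genes of the interval with several detected probes, 18 (22.5%) had probes of opposite sign, beside 21.3% of such genes in the whole series. In 4 of the 80 genes the probes differed by more than 1 on the log2 scale. Among them was AT4G08940, whose brightest probe gave 0.12 and was not called. Its other probe, detected on the tt8-3 arrays alone, gave 4.36.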

How the data were processed

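Gene expression was measured on 8 1-colour Agilent arrays, 4 of tt8-3 and 4 of wild type. The scanner files hold spot intensities, per the file headers: a processed signal made with Agilent Feature Extraction 10.7.1.1 (also per the submitters' processing notes), which subtracts background, mean and background signals, and flags. The authors' deposited value table holds log2 values, which matched the levels described next after centring per probe on its slide (Pearson correlation above 0.9999 in each of the 8 columns). Its column medians were -0.061 to 0.113, and it was used as an alternative. Further upstream steps are not given in the sources used here.

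Levels were log2 processed signal minus the array's 75th percentile (546.7 to 1112.7). Flagged outlier spots were left out (4 to 23 per array), and no spot was saturated. Probes were named by transcript accession through the gene table (assembly TAIR10.1): 34358 of 43603 probes matched 1 gene and 9245 matched none. The brightest probe stood for a gene. The number of arrays and the signal over background limit the precision.

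Tests were run over 19226 genes in R 4.3.3 with limma 3.58.1, by lmFit and then eBayes, and p-values were adjusted by Benjamini-Hochberg. Slide numbers come from the sample descriptions, and slide deviations of the lines correlated at 0.78 over genes, so the slide was also fitted as a block. The consensus correlation within slide averages was -0.207. Differences between the 2 arrays of a line correlated between slides at 0.666 in tt8-3 and 0.876 in wild type. Which arrays are technical replicates could not be settled. Slide averages may therefore mix the biological replicates, and the spread in the block fit may be technical. A lower bound on a fold uses, on each array, the gene's own signal or, where that is lower, the dimmest signal called well above background. Named genes are TT8, the 6 detected genes nearest TT8 on each side, the 10 largest rises and falls among called genes with the same sign on both slides, genes detected in 1 line only, and up to 5 genes with the smallest p per function list. AT4G09060, AT4G08593, AT4G08940, KELP, ACS6, CRK31, ARGAH1, MEKK1, MEKK3, MPK5, DET1, KNAT1, MYB6 and the PLDGAMMA genes fall outside this rule. They were chosen after their values were seen. The members and the lists were chosen with earlier results of these data known. The steps were tested on simulated data for tt8-3 against wild type over 19226 genes in which 50 genes were shifted by each size. The share called was 0% for a log2 shift of 0.5, 22% for 1, 78% for 2 and 92% for 3, while 4 of the 100 calls were false. The simulated arrays had no slide deviation shared by the lines and no split by position. They also had far fewer changed genes than the 5137 called in the real arrays. These shares therefore do not give the recovery or the false calls in the real arrays. Alternatives covered averaging, blocks, background correction, scaling, normalization, probe choice, filters, the deposited table and left-out arrays.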

Additional observations from a re-analysis of the deposited data

Results flagged for a closer look

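In each line, the 4 arrays of TT8 and of the 60 named genes were checked for an array far from the rest, 122 groups in all. An array was listed when its gap to the nearest array, divided by the range of the group, passed Dixon's 95% critical value for 4 values, which chance does in about 5% of groups. In 5 groups an array stood apart. ATPD had 4.53 in tt8-3 replicate 3, above the other tt8-3 arrays at 4.40. RH39 had 0.93 in tt8-3 replicate 4, above the others at 0.78 to 0.79. AT4G11310 had -2.53 in tt8-3 replicate 2, below the others at -2.03 to -1.98. RPS18C had 5.18 in wild type replicate 2, above the others at 4.88 to 4.91. AGL14 had -8.7 in wild type replicate 2, below the others at -7.79 to -7.75, and none of these 4 signals was well above background.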

How the results depend on the processing

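For each setting the values stand in this order: calls over all genes tested (5137 in the report), calls in the interval (59), the share called within 50 genes of TT8 (21.57%) and calls among the 60 named genes (37). With the slide as a replicate block they were 12415, 145, 58.82% and 53. Averaging by position gave 597, 9, 1.96% and 8. The deposited value table, centred per slide by the authors, gave 13890, 168, 72.55% and 56. With no filter on dim probes they were 2398, 26, 5.56% and 19. Normexp background correction on all spots gave 105, 0, 0% and 0, with 0 calls in the interval by limma at the adjusted threshold, and without spots of flagged background (chosen after seeing the data) the last 3 were 37, 7.84% and 24. Leaving out 1 array or slide average at a time gave 2097 to 5036, 20 to 51, 5.88% to 17.65% and 15 to 31. The lone slide average left in such a fit was assumed to vary like the others. The narrower interval, AT4G09000 to AT4G10600, held 22 of the calls among 88 detected genes (25%), beside 26.7% of all genes tested. The cause of these changes was not tested.

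The median difference of the interval was -0.0598 in the report, -0.1591 with median scaling, -0.1928 with no filter, 0.0672 with normexp on all spots, -0.0805 with normexp without flagged spots, and -0.0782 to -0.0036 with samples left out. Normexp on all spots moved the median of all genes by 0.11. Single genes changed sign in places. With normexp on all spots these were AT4G08400 (0.1312), AT4G09810 (0.2497), AT4G10260 (0.2) and AT4G11810 (0.0445), and without flagged spots SULTR1;1 (-0.0174) and AT4G09840 (-0.1148). The median over probes turned RH39 (-0.0324) and SPA2 (-0.1213), median scaling RH39 (-0.0384) and quantile normalization RPS18C (0.183). With samples left out the difference ranged from -0.2835 to 0.6044 for SULTR1;1, -0.1226 to 0.2442 for RH39, -0.2638 to 0.2064 for RPS18C, -0.3179 to 0.0714 for AT4G09810, -1.457 to 0.0838 for AT4G11170, -0.1857 to 0.5796 for ARCK1 and -0.0354 to 0.4898 for AT4G11910. No other gene named by the rule changed sign in any setting run. Outside the rule, AT4G08593 (0.5316 and 0.479) did so without wild type replicates 2 and 4, and CRK31 (to -0.3196), MEKK1 (to -0.1868), DET1 (0.0522), KNAT1 (-0.0487), PLDGAMMA2 (-0.0119) and PLDGAMMA3 (-0.031), none of them called on slide averages of all arrays, did so in at least 1 setting. AT4G08940, also outside the rule and not called, ranged from -0.0466 to 0.2888 with samples left out. TT8 kept its direction and its call in every setting that tested it. Distance in bases was not run.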
